A study of Mus musculus with 36 samples.

Results

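RNA was compared between the soleus of mice labelled as lacking the estrogen-related receptors ERRbeta and ERRgamma in muscle and the soleus of their wild-type littermates. The libraries were chosen by muscle, deletion class and genotype in their column names, which gave 3 knockout-labelled and 3 wild-type libraries of the 36 in the series. All mice were males 1 year old on the C57BL/6JBom background. Knockouts came from floxed mice crossed to mice carrying a Cre recombinase driven by the human α-skeletal actin (HSA) promoter, which is active in muscle fibres, so blood vessels, connective tissue, nerve and immune cells in the same tissue keep the receptors. The comparison groups were the EDL (extensor digitorum longus, a fast muscle) of the same class, and the soleus of mice labelled as lacking ERRalpha with ERRgamma or ERRalpha alone, each with 3 knockout-labelled libraries and 3 wild types of their own. Columns mark genotype as FXp and FX-, read here as floxed with and without Cre, and every direction rests on that reading. Library numbers follow the order of the columns and serve as names.

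The 3 ERRs are orphan nuclear receptors that bind DNA elements with the core AAGGTCA and activate genes of mitochondrial energy production together with coactivators such as PGC-1alpha (Ppargc1a). Soleus is a postural muscle rich in slow and IIA fibres, which burn fatty acids. Fatty acids are taken up, bound, activated to acyl-CoA, carried into mitochondria by the carnitine palmitoyltransferases and shortened by beta-oxidation, and the acetyl-CoA and reduced cofactors then feed the tricarboxylic acid (TCA) cycle and the respiratory chain.

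The values are log2 signals that the authors quantile normalized, so the sequencing depth of each library is unknown, and these 6 libraries detected 14160 to 14846 genes. Slow fibre genes bore out the tissue label: the slow myosin heavy chain Myh7 lay between 9.69 and 10.5 in the 6 soleus libraries and between -0.38 and 2.33 in wild-type EDL, while the fast chain Myh4 lay between 2.90 and 8.63 against 11.7 to 11.9. The knockout-labelled soleus libraries of this class spread more than any other group, with a median SD per gene of 0.243 against 0.142 to 0.174 in the other 11 groups, and the fit gave the group a weight of 0.425. Knockout-labelled library 1 stood farthest from the wild-type mean, with 1091 of 11914 genes more than 1 log2 unit higher and 456 more than 1 lower. Library 3 had 682 higher and 141 lower, and library 2 had 168 higher and 286 lower. The genes the results turn on are therefore given by library, and leaving out library 3 or library 1 changed counts of called genes, as given beside them.

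The deleted genes were read first. Esrrb (GRCm38, chromosome 12, 86361117 to 86521628, plus strand) measured 2.97, 3.02 and 2.76 in knockout-labelled libraries 1 to 3 and 2.81, 2.57 and 2.52 in the wild types. The groups overlapped, and the difference was 0.28 ± 0.27 (SE, n = 3 per group, adjusted p = 0.742). Esrrg (chromosome 1, 187608791 to 188214885, plus strand) measured 4.22, 4.45 and 4.56 against 3.06, 3.36 and 3.52. All knockout-labelled libraries were above all wild types, and Esrrg was called higher by 1.09 ± 0.20 (adjusted p = 0.00397). Esrrg was also called higher in the soleus of the ERRalpha/gamma class (1.21 ± 0.15). It was not called in the soleus of the ERRalpha class (0.36 ± 0.16) or the EDL of the ERRbeta/gamma class (0.48 ± 0.14). Esrra, the receptor the ERRbeta/gamma class keeps, differed by 0.07 ± 0.15 (adjusted p = 0.899). Deletion by Cre removes part of a gene, and a signal for the gene as a whole may miss that, so these values do not check the genotype.

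Of 13375 genes tested with limma, 228 were called (adjusted p under 0.05 by Benjamini-Hochberg), which is 1.7% (76 higher, 0.568%; 152 lower, 1.14%), and 1711 had an unadjusted p under 0.05. With each library recentred on its median the split was 55 higher and 182 lower. Without weights it was 423 and 475, with 1 weight per library 1585 and 884, and without knockout-labelled library 2 it was 280 and 252, so the predominance of lower calls did not hold in all settings. All 228 called genes moved in the called direction in each of the 3 knockout-labelled libraries against the wild-type mean, and in 220 the groups did not overlap. The test chose these genes on the same libraries, so such agreement is largely built in and does not check the calls. Over all 12783 genes with a value in all 6 libraries, the 3 knockout-labelled libraries lay wholly above the wild types in 9.13% and wholly below in 8.86%. Among the genes called lower the median difference from the wild-type mean was -1.01 in library 1, -0.54 in library 2 and -0.71 in library 3, and among those called higher 0.99, 0.56 and 0.75. The count changed with the library left out: without knockout-labelled library 3, 3 genes were called, without library 1 125 were, without library 2 532 were, and without wild-type library 3 91 were. Of the 228, Slc41a1, Tmem64 and Fads6 were the 3 that stayed called whichever of the 6 libraries was left out.

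Among genes named by rule, the largest falls were in lipid handling and mitochondrial transport and in a few genes outside metabolism. Lrtm1 (chromosome 14, 29018208 to 29033645, plus strand), a leucine-rich repeat membrane protein, measured 0.29, 1.69 and 1.36 in the knockout-labelled libraries and 2.71, 3.25 and 3.39 in the wild types. It fell to 24.9% of the wild-type level (-2.0 ± 0.35, adjusted p = 0.00255). Gmnn (chromosome 13, 24751845 to 24761923, minus strand) encodes geminin, an inhibitor of DNA replication licensing, and measured 1.61, 0.89 and 1.23 against 2.98, 3.03 and 3.32. It was called lower by 1.87 ± 0.30 (adjusted p = 0.00144), and for both genes the groups were far apart.

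Slc25a34, a member of the mitochondrial carrier family, measured 2.05, 2.05 and 2.49 against 4.55, 3.49 and 4.23 (-1.90 ± 0.49, adjusted p = 0.0412). Its wild types spread over more than 1 log2 unit, and its call ended when genes with low values were not filtered out. It also ended when any 1 of the knockout-labelled libraries was left out, and without wild-type library 1 or 3. Dgat2, which performs the last step of triglyceride synthesis, measured 4.19, 4.74 and 4.88 against 6.38, 6.34 and 6.46, a fall to 28.9% (-1.79 ± 0.40, adjusted p = 0.0158). Without knockout-labelled library 1 Dgat2 was not called. Fads6, of the fatty acid desaturase family, measured 0.76, 1.78 and 1.76 against 2.94, 3.05 and 3.02, with the wild types close together. It fell by 1.57 ± 0.20 on the log2 scale (adjusted p = 0.000129). Slc41a1, a magnesium transporter, measured 3.24, 3.73 and 3.22 against 4.57, 4.66 and 4.61 and fell by 1.22 ± 0.16 (adjusted p = 0.000129).

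The other large falls were Fabp3, Amy1, Maob, Slc25a22, Nnt and Idh2. Amy1, an amylase gene, fell to 37.3% of wild type (-1.42 ± 0.29). The annotated span of Amy1 (chromosome 3, 113555710 to 113606699, minus strand) overlaps that of the splicing gene Rnpc3 on the same strand (113605067 to 113630149). Rnpc3 changed by -0.67 ± 0.20 here (adjusted p = 0.079). Amy1 and Rnpc3 changed by -1.38 and 0.08 in the EDL of this class. In soleus they changed by -1.67 and -0.06 in the ERRalpha class, and by -0.52 and 0.41 in the ERRalpha/gamma class. Whether reads of the pair were told apart was not tested. Maob, a monoamine oxidase of the outer mitochondrial membrane, fell to 41.4% (-1.27 ± 0.27) and was not called without library 1. Slc25a22, a mitochondrial glutamate carrier, fell to 42.6% (-1.23 ± 0.32), though it was not called with genes of low values kept in or without library 1. Nnt and Idh2 both make NADPH in mitochondria. Nnt, the transhydrogenase of the inner membrane, which is known to be disrupted in some C57BL/6 substrains, measured 5.86, 6.51 and 6.32 against 7.62, 7.44 and 7.25. Idh2, the isocitrate dehydrogenase that uses NADP, measured 6.99, 7.60 and 7.47 against 8.65, 8.67 and 8.35. They fell by 1.20 ± 0.20 and 1.20 ± 0.26, and no library overlapped.

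Among called genes whose groups did not overlap and whose mean signal was at or above the median of all genes tested, the largest rise was in Ankrd1 (chromosome 19, 36111961 to 36120099, minus strand), which encodes a titin-binding protein known to rise in stretched or injured muscle. It measured 7.91, 3.95 and 5.81 in the knockout-labelled libraries and 3.15, 3.31 and 2.20 in the wild types, so the 3 knockout-labelled values were far from each other but all higher. The rise was 3.00 ± 0.61 (adjusted p = 0.00804), and 1.99 without library 1, where it was not called. Scx (chromosome 15, 76457452 to 76459458, plus strand), the tendon transcription factor scleraxis, measured 4.16, 3.03 and 3.93 against 1.40, 1.83 and 1.61, a 4.28-fold rise (2.10 ± 0.30, adjusted p = 0.000322). Aebp1, a secreted collagen-binding protein, was even across libraries at 3.60, 3.57 and 3.71 against 2.35, 2.10 and 2.17 (1.43 ± 0.31, adjusted p = 0.0125).

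Myl1, the alkali light chain of fast fibres, measured 12.23, 12.06 and 12.36 against 10.69, 10.89 and 10.98 and rose 2.57-fold (1.36 ± 0.28, adjusted p = 0.00841). Rgcc, a cell cycle regulator, rose by 2.12 ± 0.55, and was not called with genes of low values kept in or without library 1. Eda2r, a receptor for ectodysplasin A2, rose by 1.55 ± 0.33, and Panx1, a membrane channel, by 1.33 ± 0.29. Pfkfb4, which sets the level of a glycolysis activator, rose by 1.13 ± 0.25 and was not called without library 1. Itga7, the laminin receptor chain of muscle fibres, rose by 1.07 ± 0.19. Itga7 was carried most by library 1 (5.54, against 4.28 and 4.53 in libraries 2 and 3 and at most 3.94 in wild types), and its rise was 0.69 without that library. The uncharacterized genes Gm42035 and 3632451O06Rik rose by 1.21 ± 0.29 and 1.07 ± 0.26, and without library 1 Gm42035 stood at 0.60 and was not called.

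**Figure D1:**
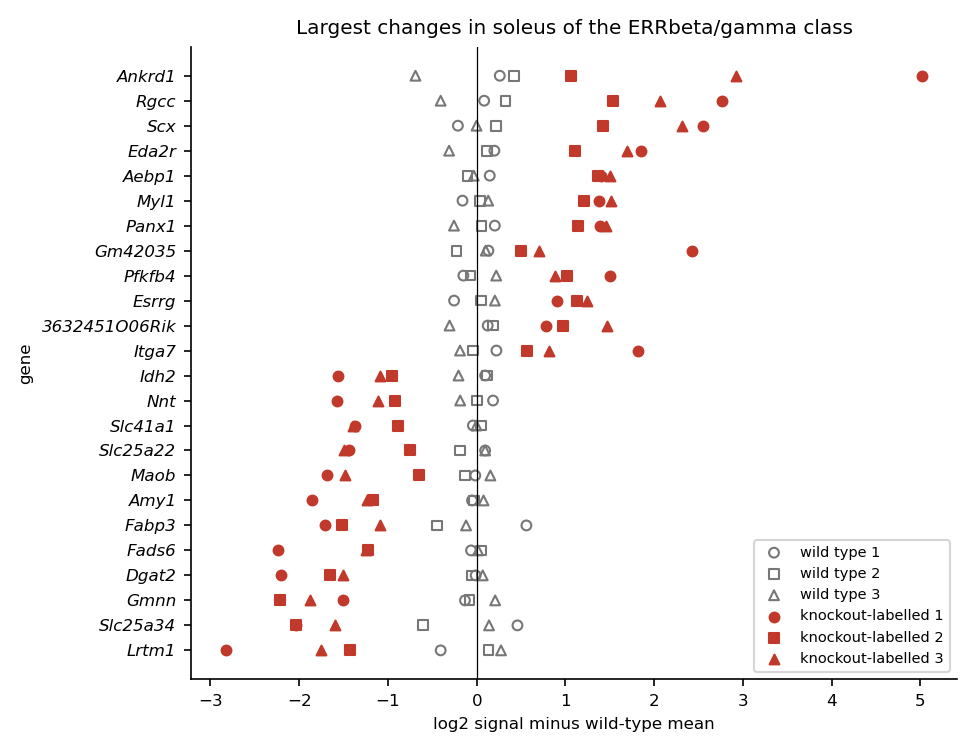
Log2 signal minus the mean of the 3 wild types (horizontal axis) for the 12 largest rises and 12 largest falls (vertical axis) in the soleus of the ERRbeta/gamma class, 1 point per library, with filled red points for knockout-labelled and open grey points for wild-type libraries. The red points of Ankrd1 run from 1.06 to 5.02 above the wild-type mean, while those of Aebp1 lie between 1.37 and 1.51.

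Fatty acid oxidation was the list with the most called genes. Of 27 genes tested, 14 fell (51.9%, against 1.14% of all genes) and none rose. The change was below 0 in all 27, with a median of -0.68 against 0.05 over all genes tested. In 25 the knockout-labelled libraries lay wholly below the wild types, against 8.86% of all genes. The median by library was -0.90, -0.44 and -0.57 in knockout-labelled libraries 1, 2 and 3, and 0.12, -0.10 and -0.04 in wild-type libraries 1, 2 and 3. With 1 library left out the list had 0 (without knockout-labelled library 3) to 17 calls, and 7 without library 1, while the median stayed between -0.74 and -0.52. The 6 libraries fitted alone called 1.

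Members at each step fell. Acsl1, which activates long-chain fatty acids to acyl-CoA, measured 5.29, 5.77 and 5.81 in the knockout-labelled libraries and 6.88, 6.56 and 6.84 in the wild types, a fall to 45.5% (-1.14 ± 0.21, adjusted p = 0.00477). Cpt1b, the muscle carnitine palmitoyltransferase of the outer membrane, measured 6.13, 6.98 and 6.93 against 7.64, 7.32 and 7.28. It was called lower by 0.73 ± 0.16 (adjusted p = 0.0119), with library 1 the lowest. Without that library the call ended and the value moved by more than 1.5 times, to -0.46. Cpt2, its partner on the inner membrane, measured 4.52, 5.11 and 4.84 against 5.72, 5.45 and 5.65 (-0.78 ± 0.16, adjusted p = 0.00806).

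In the beta-oxidation spiral, Hadhb, the thiolase chain of the trifunctional protein, measured 6.57, 7.12 and 6.97 against 8.0, 7.69 and 7.70 (-0.91 ± 0.18, adjusted p = 0.00647). Hadh, the short-chain hydroxyacyl-CoA dehydrogenase, measured 6.53, 7.03 and 6.81 against 7.53, 7.59 and 7.45 (-0.73 ± 0.15, adjusted p = 0.00713). Acaa2, the mitochondrial thiolase that releases acetyl-CoA, was the most even, at 6.73, 6.95 and 6.83 against 7.93, 7.89 and 7.78, a fall to 49.0% (-1.03 ± 0.17, adjusted p = 0.00194). The remaining 8 called members were Acadm, Acadsb, Hadha, Eci1, Decr1, Etfa, Etfdh and Acot13, with changes between -0.82 and -0.46. The largest value in the list, -1.86 for Acot2, a mitochondrial acyl-CoA thioesterase, was not called (adjusted p = 0.101). The smallest were -0.07 for the peroxisomal thiolase Acaa1a and -0.29 for Hsd17b10, also not called.

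**Figure D2:**
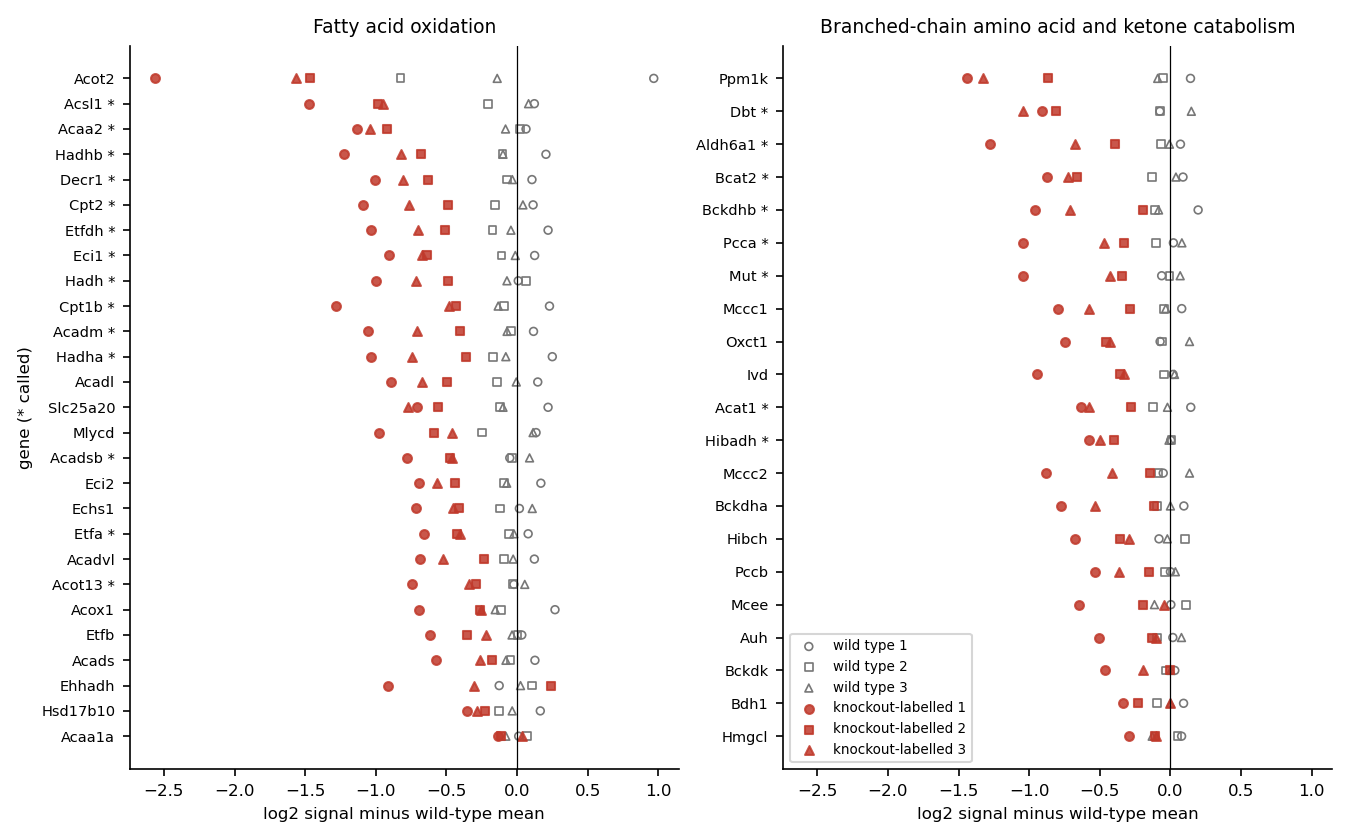
Log2 signal minus the wild-type mean (horizontal axis) for each gene of the fatty acid oxidation list (left, 27 genes) and of the list for branched-chain amino acids and ketones (right, 21 genes), 1 point per library, with filled red points for the 3 knockout-labelled and open grey points for the 3 wild-type libraries. Red points lie left of all grey points in 25 genes on the left and 17 on the right (8.86% over all genes), and asterisks mark the 14 and 8 called genes.

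Genes that bring lipid to the fibre and store it had mostly negative changes. Of 23 tested, 3 fell (13%, against 1.14% of all genes) and none rose. Of the 23, 21 had changes below 0, and the median was -0.43. In 12 the groups did not overlap, all below wild type, as did 8.86% of all genes. Fabp3, the fatty acid binding protein of heart and slow muscle, measured 9.92, 10.11 and 10.54 against 12.19, 11.18 and 11.51, a fall to 37.0% (-1.44 ± 0.36, adjusted p = 0.0294). Its call ended in the 18 soleus libraries alone and when any 1 of the knockout-labelled libraries was left out. It also ended without wild-type library 1 or 3. Lpl, lipoprotein lipase, which frees fatty acids from circulating triglyceride, measured 7.75, 8.10 and 8.06 against 9.31, 8.93 and 9.14 (-1.16 ± 0.25, adjusted p = 0.0107). Dgat2 was the third. Lpl also stands in the fat marker list, where it was the 1 of 11 genes called, and the summed signal of that list was 2010, 4350 and 4580 in knockout-labelled libraries 1 to 3 and 1780 to 2270 in the wild types. The median over its members was -1.3, 0.074 and 1 in knockout-labelled libraries 1 to 3 and -0.83 to 0.26 in the wild types.

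Of 21 genes that break down branched-chain amino acids and ketones, 8 fell (38.1%, against 1.14% of all genes) and none rose. All 21 changes were below 0, with a median of -0.50 and medians by library of -0.77, -0.29 and -0.43 in knockout-labelled libraries 1 to 3. Bcat2, the mitochondrial transaminase that takes the amino group from leucine, isoleucine and valine, measured 3.04, 3.26 and 3.19 against 4.01, 3.79 and 3.96 (-0.75 ± 0.15, adjusted p = 0.00582). Dbt, the E2 core of the branched-chain ketoacid dehydrogenase, measured 2.85, 2.95 and 2.71 against 3.69, 3.69 and 3.91 (-0.92 ± 0.18, adjusted p = 0.00582). Both were low in all 3 knockout-labelled libraries, well clear of the wild types.

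Further along the valine and ketone pathways, Aldh6a1, methylmalonate-semialdehyde dehydrogenase, fell by 0.78 ± 0.14, Hibadh, of valine breakdown, by 0.49 ± 0.10, and Acat1, the acetoacetyl-CoA thiolase, by 0.50 ± 0.11. Bckdhb, Pcca and Mut were also called. Leaving out 1 library gave 0 (without knockout-labelled library 3) to 13 (without library 2) called genes in this list. It gave 5 without library 1 or without wild-type library 3.

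The ERR core motif AAGGTCA was looked for, on either strand, in promoters from RefSeq (GRCm38.p6, 250 bases before to 50 after the start site). Of 13375 genes tested 10230 had a promoter sequence, and 404 of these (3.95%) held the motif. It was found in 6 of 105 promoters of genes called lower (5.71%) and 4 of 62 of genes called higher (6.45%), in 1 of 22 of the fatty acid oxidation list (4.55%) and in 0 of 17 of the branched-chain list. The longer motif TCAAGGTCA, which contains the core, was found in 0.342% of all and in no called gene. Promoters with a match are shown to place the motif in 2 genes that fell, Slc25a34 and the medium-chain acyl-CoA dehydrogenase Acadm, and in 1 that rose, the enolase Eno1; capitals mark the motif, which reads TGACCTT where it lies on the other strand.
Slc25a34 (chr4:141623785-141624084, minus strand): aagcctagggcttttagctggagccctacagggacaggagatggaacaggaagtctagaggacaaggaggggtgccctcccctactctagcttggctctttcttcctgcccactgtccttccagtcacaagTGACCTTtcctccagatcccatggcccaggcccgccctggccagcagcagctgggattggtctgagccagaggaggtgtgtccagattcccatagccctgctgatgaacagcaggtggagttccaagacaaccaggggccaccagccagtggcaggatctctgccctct
Acadm (chr3:153944594-153944893, minus strand): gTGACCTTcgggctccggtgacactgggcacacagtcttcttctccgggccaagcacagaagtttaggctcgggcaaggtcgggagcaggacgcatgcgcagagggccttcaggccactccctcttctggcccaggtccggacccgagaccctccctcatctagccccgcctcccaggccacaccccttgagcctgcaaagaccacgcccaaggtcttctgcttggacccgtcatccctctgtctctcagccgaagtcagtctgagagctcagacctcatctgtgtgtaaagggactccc
Eno1 (chr4:150236458-150236757, plus strand): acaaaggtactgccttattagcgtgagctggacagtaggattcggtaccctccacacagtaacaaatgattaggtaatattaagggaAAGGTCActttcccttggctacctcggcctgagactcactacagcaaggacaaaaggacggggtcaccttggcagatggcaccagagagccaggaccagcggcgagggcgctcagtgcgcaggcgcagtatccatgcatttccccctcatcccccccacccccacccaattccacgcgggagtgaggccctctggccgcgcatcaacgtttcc
The match began 119, 249 and 163 bases before the start site in these 3 genes. A match in these letters is not shown to be a bound site.

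The TCA cycle and the respiratory chain had medians nearer 0. Of 32 TCA cycle and pyruvate dehydrogenase genes 5 fell (15.6%, against 1.14% of all genes), with a list median of -0.17. Besides Idh2 these were Pdp1, the phosphatase that switches pyruvate dehydrogenase on, at 3.73, 3.83 and 3.56 against 4.65, 4.55 and 4.43 (-0.84 ± 0.19, adjusted p = 0.0178), its regulatory partner Pdpr (-0.45 ± 0.11), the succinyl-CoA ligase subunit Suclg2 (-0.56 ± 0.12) and Sdhb. Pdpr and Suclg2 were not called without knockout-labelled library 1. Sdhb, the iron-sulfur subunit of complex II, measured 8.19, 8.39 and 8.44 against 8.82, 8.85 and 8.88, a fall to 70.4% (-0.51 ± 0.10, adjusted p = 0.00671). Pdk4, the kinase that switches pyruvate dehydrogenase off, was not called (-0.46 ± 0.86).

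Over the 79 nuclear genes of complexes I to IV, cytochrome c and ATP synthase, 2 fell (1.14% over all genes), Sdhb and the ATP synthase subunit Atp5h (-0.34 ± 0.09), and none rose. Their changes ran from -0.51 to 0.27 with a median of -0.06. Atp5h was not called when any 1 of the knockout-labelled libraries was left out. None of 36 complex I genes (median -0.04) or of 13 cytochrome c oxidase genes (median -0.06) was called, and the lowest p in each belonged to Ndufab1 (-0.19 ± 0.08, adjusted p = 0.32) and Cox6b1 (-0.24 ± 0.09, adjusted p = 0.209).

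In other mitochondrial lists single genes fell (1.14% over all genes). Mrpl14, of the large mitochondrial ribosome subunit, was the most even of these, at 4.19, 4.18 and 4.21 against 5.19, 5.01 and 5.14, a fall to 52.8% (-0.92 ± 0.13, adjusted p = 0.000283), and the other 73 mitochondrial ribosome genes were not called. Mfn1, which fuses outer membranes, fell by 0.57 ± 0.10, the phosphate carrier Slc25a3 by 0.37 ± 0.10 and the outer membrane channel Vdac1 by 0.35 ± 0.09, the last not called after recentring, of 37 genes of import, fusion, fission and cristae. Slc25a3 and Vdac1 were not called without knockout-labelled library 1. The adenine nucleotide translocase Slc25a4, which exchanges ADP for ATP, fell to 66.5% (-0.59 ± 0.12). The protease subunit Clpx fell by 0.58 ± 0.13. Outside the mitochondrial lists, Cth, of cysteine synthesis, fell by 1.79 ± 0.36. Cth was the 1 call among 20 genes of the integrated stress response list, of which 15 had changes above 0 (median 0.23).

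No coactivator or biogenesis gene of 30 was called. Ppara, the fatty acid sensing nuclear receptor, measured 1.97, 2.20 and 2.16 against 2.57, 2.72 and 3.29 without overlap (-0.75 ± 0.22, adjusted p = 0.0772), and Perm1, a muscle partner of PGC-1 and ERR, measured 5.14, 6.04 and 5.46 against 6.11, 6.19 and 6.52 (-0.73 ± 0.22, adjusted p = 0.0911). Ppargc1a overlapped between groups (0.55 ± 0.59). Of 15 angiogenic factors Vegfb, which acts on the vessels of oxidative tissue, was called lower by 0.64 ± 0.12 (5.18, 5.47 and 5.21 against 5.95, 5.86 and 5.94). Vegfa measured -0.48 ± 0.21 (adjusted p = 0.321).

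Slow contractile genes were not called: 0 of 20, with a median of -0.02. Myh7 measured 9.69, 10.49 and 10.40 against 10.11, 10.21 and 10.02, and the slow troponins Tnni1, Tnnt1 and Tnnc1 differed by 0.17 ± 0.65, 0.02 ± 0.60 and 0.16 ± 0.73. These standard errors come from a spread per gene that all 12 groups share, EDL included, and are larger than those of most genes named here. Myl2, the slow regulatory light chain, was lower in every knockout-labelled library (10.17, 10.77 and 10.74 against 11.50, 12.21 and 11.15) without a call (-1.06 ± 0.88, adjusted p = 0.682), and so was Myh2, the IIA heavy chain (9.43, 9.71 and 9.86 against 10.49, 10.05 and 10.42, adjusted p = 0.623).

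Of 17 fast contractile genes Myl1 rose, and Myh4, the IIB heavy chain, had no order, at 2.90, 8.63 and 5.57 against 8.38, 4.02 and 6.94. Of 23 glycolysis and lactate genes Eno1 rose (0.84 ± 0.19, adjusted p = 0.0132), though without library 1 it stood at 0.54 and was not called. The list median was 0.28, and 10 of the 23 lay wholly above the wild types, as did 9.13% of all genes. Of 26 calcium cycling genes 2 rose (7.69%, against 0.568% of all genes). S100a1, a calcium sensor, measured 7.93, 7.85 and 7.83 against 7.14, 7.18 and 7.22 (0.69 ± 0.14, adjusted p = 0.00964). Cacng1, a subunit of the muscle calcium channel, rose by 0.85 ± 0.18 (adjusted p = 0.0113). The S100a1 values were tight within each group. Cacng1 was not called without library 1.

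Structural and turnover genes gave few calls (0.568% of all genes were called higher). In the list of developmental sarcomere genes Ankrd1 was the 1 of 8 called, and in the list of stretch and Z-disc genes Ankrd1 and Synpo2l, a Z-disc protein (0.61 ± 0.16), were called of 25. Synpo2l was not called after recentring or without library 1. The intermediate filament gene Des rose by 0.61 ± 0.14 and by 0.37 without library 1, where it was not called. Of 37 proteasome genes Psmc4 and Psmd5 rose (0.39 ± 0.09 and 0.57 ± 0.15), neither called after recentring. Psmd5 was also not called with genes of low values kept in or without library 1. Of the 37, 17 lay wholly above the wild types, as did 9.13% of all genes. Of 26 antioxidant genes Txn1, thioredoxin, rose by 0.56 ± 0.14 and by 0.28, without a call, when library 1 was left out. No gene of neuromuscular junction and denervation (19 tested), atrophy and growth control (23), fibre-type regulation (27), glycogen (18) or the clock (17) was called, nor any of 78 cytosolic ribosome genes (median 0.13).

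**Figure D3:**
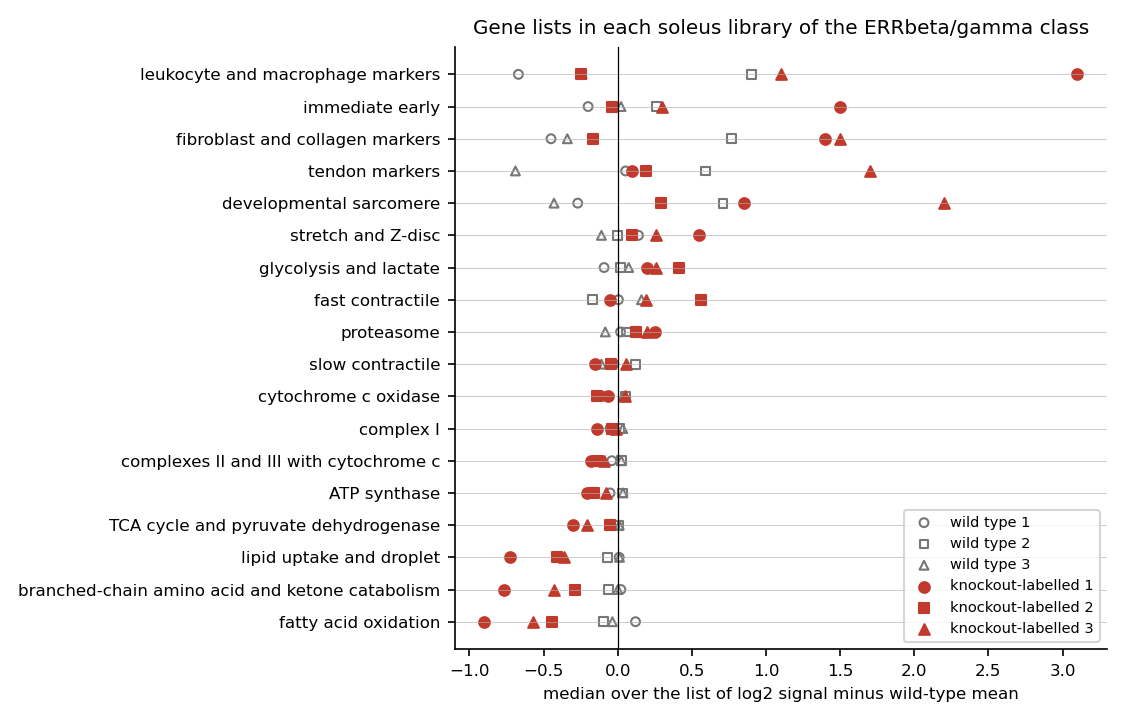
Median over each gene list (vertical axis) of log2 signal minus the wild-type mean (horizontal axis), 1 point per soleus library of the ERRbeta/gamma class, with filled red points for knockout-labelled and open grey points for wild-type libraries. For fatty acid oxidation the red points lie at -0.90, -0.44 and -0.57, left of every grey point, while for leukocyte markers they run from -0.25 to 3.1.

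Markers of other cells differed between the libraries of the same group. The leukocyte and macrophage list (20 genes tested, none called, median 1.3) had medians of 3.1, -0.25 and 1.1 in knockout-labelled libraries 1, 2 and 3 and -0.67, 0.90 and -0.24 in the wild types. In library 1 all 20 genes with a value were more than 1 log2 unit above the wild-type mean. The summed linear signal of the list was 463, 47.8 and 126 in the knockout-labelled libraries and 35.2, 114 and 46.3 in the wild types. It was 32.3 to 190 in the 12 other soleus libraries. The B-cell gene Cd79a had no value in 5 of the 6 libraries and Ccl2 none in knockout-labelled library 2. In the EDL of the animal behind library 1 the sum was 46.1, within the range of the class's wild-type EDL (25 to 56.6).

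Fibroblast and collagen markers (24 tested, none called, median 0.99) summed to 644, 272 and 904 in knockout-labelled libraries and 233, 526 and 268 in wild types. Periostin, Postn, an extracellular matrix protein of activated fibroblasts, measured 5.33, 2.73 and 6.82 against 1.95, 4.17 and 0.91. Tendon markers (1 of 12 called, Scx) summed to 195, 57.8 and 192 against 54, 72.9 and 37.2. Immediate early genes (0 of 18 called) summed to 244, 102 and 123 against 90.5, 125 and 108. By these sums, libraries 1 and 3 lay above every wild type in leukocyte, matrix and tendon markers, and library 1 most in leukocyte markers. Library 2 lay within the wild-type range for all 4 lists. For tendon markers in library 1 the median over members was 0.099, with 6 of 12 below the wild-type mean. That median was 1.7 in library 3 and 0.59 in wild-type library 2. In bulk tissue, fewer cells of a type and less RNA per cell cannot be told apart.

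The rises of Ankrd1, Rgcc and Itga7 were largest in library 1, as were the leukocyte and immediate early sums. The fibroblast and collagen sum was largest in library 3 (904, against 644 in library 1), and the tendon sums were 195 in library 1 and 192 in library 3. The part of these markers in those rises was not tested. In library 2 Ankrd1, Rgcc and Itga7 measured 3.95, 6.36 and 4.28, against at most 3.31, 5.15 and 3.94 in wild types. Scx and Aebp1 measured 3.03 and 3.57 there, against at most 1.83 and 2.35. The rule that named these genes required all knockout-labelled libraries to lie above all wild types. The sums of these 4 lists lay within the wild-type range in library 2. Other sums did not: in library 2 fat markers summed to 4350 (1780 to 2270 in wild types), smooth muscle markers to 990 (724 to 924) and endothelial markers to 58.5 (68.3 to 78.1). A sum follows its members of highest signal, such as Des in the smooth muscle list (9.91 in library 2). Over members, the medians in library 2 were 0.074 for fat, -0.0068 for smooth muscle and -0.3 for endothelial markers. Below the wild-type mean lay 5 of 11, 4 of 8 and 11 of 12 members. The falls in fatty acid oxidation and branched-chain genes were largest in library 1 and had medians of -0.44 and -0.29 in library 2. Endothelial (0 of 12, median -0.15), Schwann (0 of 8), smooth muscle (1 of 8, Des), satellite cell (2 of 13, Itga7 and Des) and red blood cell markers (0 of 5, median -0.51) gave no other call. Over all genes 1.7% were called.

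**Figure D4:**
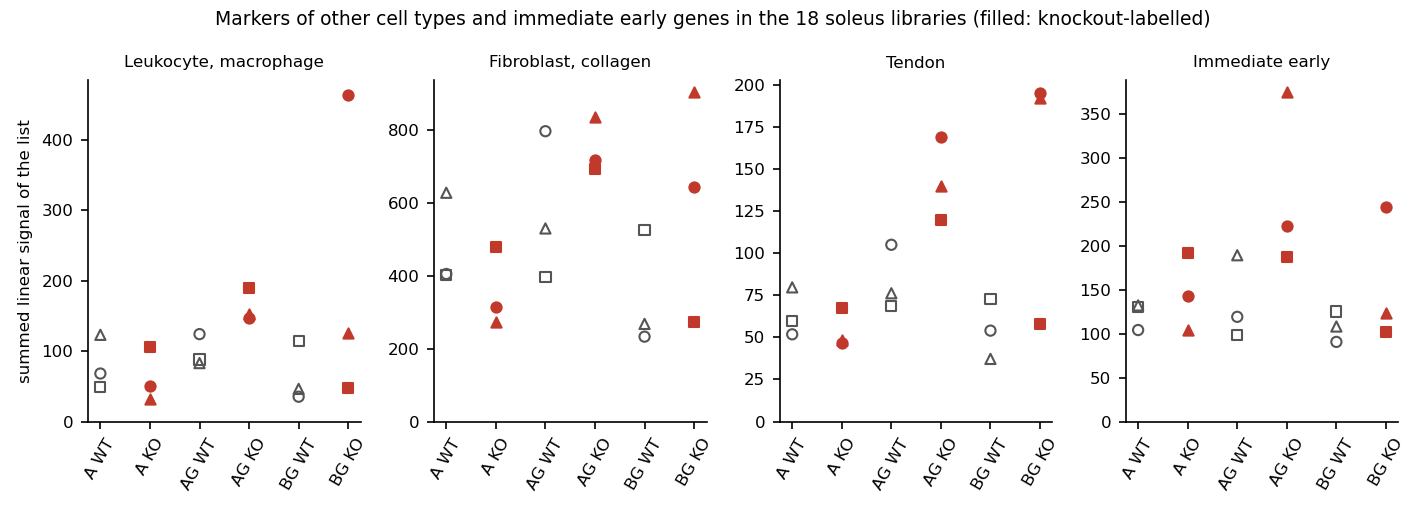
Summed linear signal (vertical axes, each from 0) of leukocyte and macrophage, fibroblast and collagen, tendon and immediate early genes in the 18 soleus libraries by group (horizontal axes: A, ERRalpha; AG, ERRalpha/gamma; BG, ERRbeta/gamma; KO, knockout-labelled, filled; WT, wild type, open), 1 point per library, with circles, squares and triangles for libraries 1, 2 and 3. In the leukocyte panel knockout-labelled library 1 of the ERRbeta/gamma class stands at 463, and library 2 at 47.8.

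The other double deletion, ERRalpha with ERRgamma, gave larger changes in the same muscle, with 2061 of 13385 genes called (15.4%; 6.63% lower). The difference between the 2 classes' changes was tested gene by gene against separate wild types, and 90 of 13365 genes (0.673%) differed, 73 of them higher in the ERRbeta/gamma class (0.546%) and 17 lower (0.127%). The respiratory chain held 37 of the 73. Of the 79 genes 67 fell in the ERRalpha/gamma class (median -0.61) against 2 here (median -0.06). By complex, complex I had 17 such genes of 36, the group of complex II, complex III and cytochrome c had 10 of 14, cytochrome c oxidase had 6 of 13 and ATP synthase had 4 of 16, and each was less reduced in the ERRbeta/gamma class. Without knockout-labelled library 3 the count over all genes was 26, and without wild-type library 1 it was 59.

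Changes are given here as log2 estimates for both classes. Uqcrq, a subunit of complex III, stood at -0.15 ± 0.11 here and -1.09 ± 0.08 in the ERRalpha/gamma class, a difference of 0.95 ± 0.14 (adjusted p = 0.000151). Dlat, the E2 core of pyruvate dehydrogenase, stood at -0.15 ± 0.11 against -1.16 ± 0.08 (difference 1.00 ± 0.13, adjusted p = 6.32e-05), and Me3, the mitochondrial malic enzyme that uses NADP, at -0.39 ± 0.17 against -1.95 ± 0.12. The signalling gene Gnb5 stood at 0.32 ± 0.28 against -1.76 ± 0.21. Slc41a1 fell in both classes, with changes of -1.22 here and -2.18 there, and the difference was called (0.96 ± 0.19, adjusted p = 0.00862). In the other direction Rgs2, a regulator of G-protein signalling, stood at -0.52 ± 0.33 here and 1.56 ± 0.24 there, and the transcription factor Jun at 0.03 ± 0.15 and 0.83 ± 0.11.

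For fatty acid oxidation no difference between the double deletions was called (0 of 27). The list medians were -0.68 here and -0.66 there, where 21 of 27 fell, and the median difference was -0.01. The intervals still allow sizeable differences for single genes: 0.21 for Acaa2 (95% interval -0.22 to 0.64), -0.51 for Acsl1 (-1.05 to 0.03), -0.14 for Hadhb (-0.59 to 0.31) and -0.32 for Cpt1b (-0.72 to 0.09). For Fabp3 both changes were -1.44, with an interval of -0.90 to 0.90. In the branched-chain list, too, 0 of 21 differences were called, with medians of -0.50 and -0.55, and for Bcat2 the difference was 0.07 (-0.30 to 0.43).

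**Figure D5:**
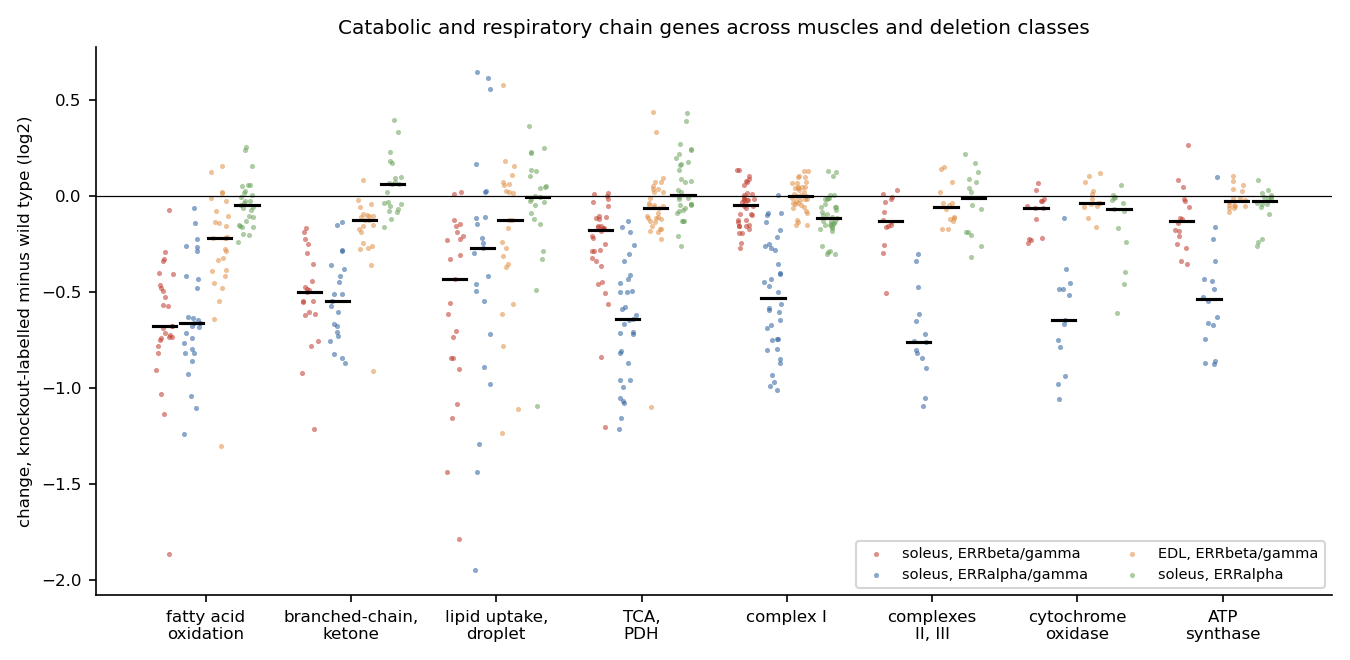
Log2 change from wild type to knockout-labelled (vertical axis) of each gene in 8 lists (horizontal axis) for soleus of the ERRbeta/gamma, ERRalpha/gamma and ERRalpha classes and EDL of the ERRbeta/gamma class, with black bars for list medians. In fatty acid oxidation the medians of the 2 double deletions in soleus are -0.68 and -0.66, while in complex I they are -0.04 and -0.53.

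Against the ERRalpha class, in whose soleus 95 genes were called (0.71%), 10 of 13350 differences were called (0.0749%), all lower in the ERRbeta/gamma class. They included Fads6 (-1.57 ± 0.20 here, -0.26 ± 0.16 there), Dbt (-0.92 ± 0.18 and 0.19 ± 0.14), Lpcat3, which remodels phospholipids (-0.97 ± 0.17 and 0.25 ± 0.13), the actin regulator Twf2 (-0.71 ± 0.15 and 0.37 ± 0.12) and the membrane protein Tmem64 (-0.88 ± 0.15 and 0.05 ± 0.11). The fatty acid oxidation list had a median of -0.05 in the ERRalpha class and a median difference of -0.63, but none of its 27 genes was called for the difference. With the animal as a block 2 of them were called lower, Eci1 and Etfa. Over all genes, called differences numbered from 0 without knockout-labelled library 3 to 212 without library 2, of which 123 were higher and 89 lower.

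In the EDL of the same class 51 genes were called (0.383%; 0.218% lower), and fatty acid oxidation genes had a median of -0.22 with none of 27 called. The difference between the muscles was called for 2 of 13305 genes (0.015%). Gmnn stood at -1.87 ± 0.30 in soleus and 0.19 ± 0.21 in EDL, and Ltbr, the lymphotoxin beta receptor, at 0.67 ± 0.13 and -0.27 ± 0.09. Soleus and EDL columns share animal numbers, and with the animal as a block 34 differences were called (10 higher in soleus, 24 lower). Lrtm1 (-2.08 ± 0.39, adjusted p = 0.0223), Fads6 (-1.04 ± 0.22, adjusted p = 0.0444), Ankrd1 (3.37 ± 0.70, adjusted p = 0.0436) and Acot13 of the fatty acid oxidation list (-0.59 ± 0.13, adjusted p = 0.0463) were among them. Without the block, leaving out 1 library gave 0 (without knockout-labelled library 3) to 91 (without library 2).

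Idh2, Lpl, Nnt, Amy1 and Slc41a1 fell in both muscles of this class. In EDL Idh2 changed by -1.10, Lpl by -1.11, Nnt by -0.96, Amy1 by -1.38 and Slc41a1 by -0.69. Amy1 was also called lower in the soleus of the ERRalpha class (-1.67 ± 0.23, adjusted p = 0.000224). Slow contractile genes had a median of -0.69 in EDL, where 4 of 20 fell, and -0.02 in soleus, with none of the 20 differences called. Myl2 stood at -4.21 in EDL and -1.06 in soleus, and Myl3, the slow essential light chain, at -2.67 and -0.11.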

How the data were processed

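Libraries were made from total RNA with a directional kit, per the labels' protocols, and the table holds log2 signals that the authors quantile normalized, per the file's own name. Partek 6.6, GRCm38.p6 and mm10 stand in the submitters' processing notes. How reads were aligned and counted, and in what unit before logs, is not given in the sources used here, and depth per library is unknown. Empty cells were taken as undetected genes. Of 45802 rows 27904 held no value and 27 with symbols turned into dates were left out. Genes were kept where their mean over 36 libraries, missing values counted at the lowest value (-8.21), exceeded the 25th percentile (-5.24), which left 13404 of 17873. No pseudocount was added, and missing values stayed missing in the tests.

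All 36 libraries entered 1 limma model (version 3.58.1, R 4.3.3) with an intensity trend, a mean for each of 12 groups and 1 weight per group. Genes were called where the adjusted p (Benjamini-Hochberg within the contrast) was under 0.05. Scripts were tested on simulated data. Changes are log2, knockout-labelled minus wild type, ± SE with 3 libraries per group unless said otherwise. Per the series' design text the libraries of a group are biological replicates. Coordinates are those of GENCODE on GRCm38. Groups came from muscle, class letters and Cre mark in the column names. The ERRalpha class has EDL columns without class letters, which enter only the shared spread.

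The 40 gene lists and the comparisons were chosen with earlier results of these data known. Genes were named by a rule: the receptors, the 12 largest rises and falls among calls with a median or higher level and no overlap of groups, up to 5 calls per list (where a list had none, its gene with the lowest p), sarcomere genes and a few regulators, and the 8 largest differences between changes in each direction. Members outside it (Acadm, Acot2, Acaa1a, Hsd17b10 and the lists of remaining called members) and the genes given with intervals were chosen after their values were seen.

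Alternatives were other weights, fits on 6 or 18 libraries, recentring, missing values at the lowest value, a pseudocount of 0.1, other filters, leaving out each library and the animal as a block. The block uses the number that soleus and EDL columns share, read as the animal's. Deviations of same-animal libraries from their group means correlated at 0.18, -0.068 and 0.049 for knockout-labelled and 0.25, 0.32 and 0.17 for wild-type animals, and limma estimated 0.154 within animals.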

Additional observations from a re-analysis of the deposited data

Results flagged for a closer look

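Each gene here was picked out since its change in the soleus of the ERRbeta/gamma class differed, by a test of the difference itself in the fit on all 36 libraries, from its change in another muscle or class. Against the EDL of the same class, Gmnn differed by -2.06 (adjusted p = 0.0311), and Ltbr by 0.935 (adjusted p = 0.0311).

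Against the soleus of the ERRalpha/gamma class, 8 genes stood out as lower in the ERRbeta/gamma class. The G-protein regulator Rgs2 differed by -2.08, the glycogen-binding protein Stbd1 by -1.37, the splicing gene Rnpc3 by -1.09 and the centrin Cetn2 by -0.941. Jun differed by -0.799, Styx, a pseudophosphatase, by -0.713, the vesicle coat gene Sec23a by -0.646 and Zcchc7, of RNA surveillance, by -0.603. In these 8 genes the ERRalpha/gamma class rose while the ERRbeta/gamma class stood at -0.67 to 0.79 without a call. For 8 genes the change was higher in the ERRbeta/gamma class: Gnb5 differed by 2.08, Me3 by 1.56, the glutaredoxin Glrx by 1.14, the fission gene Mtfp1 by 1.08, Dlat by 1.00, the membrane protein Fndc5, precursor of irisin, by 0.979, Slc41a1 by 0.961 and Uqcrq by 0.945. All 8 fell in the ERRalpha/gamma class, and Slc41a1 was the 1 of them that also fell in the ERRbeta/gamma class.

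Against the soleus of the ERRalpha class the differences were -1.31 for Fads6, -1.22 for Lpcat3, -1.11 for Dbt, -1.08 for Twf2, -0.931 for Tmem64, -0.878 for Cetn2, -0.608 for the translation factor gene Bzw2 and -0.604 for Reep5, which shapes the endoplasmic reticulum. Cetn2 rose in the ERRalpha and ERRalpha/gamma classes (0.735 and 0.798) and stood at -0.143 here without a call. The other 7 fell here and were not called in the ERRalpha class.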

How the results depend on the processing

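The number of called genes depended on how the larger spread of the knockout-labelled libraries was handled. For knockout-labelled against wild-type soleus the 228 calls became 898 without weights, 2469 with 1 weight per library (which gave knockout-labelled library 3 a weight of 4.33 and libraries 1 and 2 weights of 0.222 and 0.331) and 4 with the 6 libraries alone (Aebp1, Alox12, Mrpl14 and Acaa2, of which Alox12 was not among the 228). Leaving out 1 library gave 3 to 532. Other settings gave 173 to 261. For the difference between soleus and EDL the 2 calls became 28 without weights, 588 with 1 weight per library, 1 without a filter, and 0 to 91 with 1 library left out. With the animal as a replicate block, pairing soleus and EDL, they became 34, while the soleus comparison gave 239 and no call of a named gene was lost. For the difference from the ERRalpha/gamma class the 90 calls became 161 without weights and 652 with 1 weight per library, and 26 to 124 with 1 library left out. For the difference from the ERRalpha class the 10 became 71, 484 and, with a pseudocount, 20, and 0 to 212 with 1 library left out.

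Of the fatty acid oxidation genes 14 were called, against 24 without weights, 24 with 1 weight per library, 1 with the 6 libraries alone and 0 to 17 with 1 left out. Of the branched-chain genes 8 were called, against 16, 16, 0 with the 6 alone, 5 with the 18 soleus libraries and 0 to 13 with 1 left out. Of 57 named genes that were called, 54 lost the call in the 6 libraries alone, 55 without knockout-labelled library 3, 21 without library 1, 23 without wild-type library 3 and 14 in the 18 soleus libraries, and none reversed. The cause of the loss without library 3 was not tested. The depth of the libraries is unknown, so no limit from depth can be given.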
